A study of Arabidopsis thaliana with 6 samples.

Results

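ATG8 proteins and the enzyme ATG3 build the membrane of autophagosomes, the vesicles that carry cell contents to the vacuole for breakdown. The genes described here are ATG8B, ATG8C, ATG8D, ATG8E, ATG8F, ATG8G, ATG8H and ATG3, which are measured by 8 of the 38408 probe sets on the array, 1 for each gene. They were chosen by gene symbol in the platform annotation, after the genes whose symbols begin with ATG had stood out in the difference between apl and wildtype. Their differences in that contrast are therefore given as a description. The remaining family genes ATG8A and ATG8I were found on the array under the older symbols APG8A and APG8H, and had no part in that choice. APG8H (AT3G15580) is ATG8I and not ATG8H (AT3G06420).

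Transcripts were measured in cotyledons of 6-day-old Arabidopsis thaliana seedlings, from 3 wildtype samples, of accession Col-0, and 3 samples of the mutant apl. All samples were cultured with 2,4-D at 1.25 mg/L, an auxin, kinetin at 0.25 mg/L, a cytokinin, and bikinin at 10 µM, an inhibitor of GSK3-type kinases, and were collected after 72 h. This culture, called VISUAL, induces leaf cells to form vascular cells, and APL, a MYB-type transcription factor, directs cells to phloem fate. The labels name neither the allele nor the accession of the mutant, nor do they say how many plants went into a sample.

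An ATG8 protein resembles ubiquitin and is coupled to the membrane lipid phosphatidylethanolamine. The protease ATG4 first trims its end to a glycine, ATG7 activates it, and ATG3 hands it to the lipid, where it helps the membrane grow and binds cargo receptors. ATG8H and ATG8I end in the glycine already and need no trimming. In plants autophagy is best known from starved and senescing leaves. In the vasculature it is known from tracheary elements, the water-conducting xylem cells that clear their contents as they die.

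Arrays had median log2 signals from 6.05 to 6.25, and all 8 genes, as well as ATG8A and ATG8I, lay above that median on all 6 arrays. Signals of different probe sets depend on their probes, so no order of abundance among the genes is read from them. APL has no paired probe set, so the mutant label could not be checked by the level of APL. Of 8 mesophyll markers 2 were measured, the Rubisco activase gene RCA and the antenna protein gene LHCB4.1, and both lay above the array median on all 6 arrays. These are markers of mesophyll and not of cotyledons, so they do not check the cotyledon label. In a whole organ, fewer cells of a type and less RNA per cell cannot be told apart.

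ATG8H had the largest difference among the 8 genes. Its log2 signal was 10.36, 10.72 and 9.98 in wildtype replicates 1, 2 and 3, and 8.12, 8.92 and 7.40 in apl replicates 1, 2 and 3. The groups did not overlap, and the lowest wildtype array lay 1.06 log2 units above the highest apl array. The means were 10.36 ± 0.37 and 8.15 ± 0.76 (SD, n = 3 each), a difference of -2.21 (SE 0.40), or a 4.62-fold lower signal in apl. Of all probe sets, 0.758% had a difference as low or lower. Since the genes were chosen on this contrast, nothing is read from that share. ATG8H did not pass the test over all probe sets (limma adjusted p = 0.0924), and did with the replicate number as a block (limma adjusted p = 0.032).

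ATG8B, of the part of the family whose products need trimming, was the other member whose groups did not overlap. Its log2 signal was 9.16, 9.82 and 9.05 in wildtype and 8.05, 8.71 and 8.07 in apl. The difference was -1.07 (SE 0.29, n = 3 per group), a 2.09-fold lower signal in apl. It was nearly the same in the 3 pairs of arrays with the same replicate number, at -1.11, -1.11 and -0.97, although replicate 2 was the highest array of both groups.

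ATG8E varied most between replicates. Its log2 signal was 7.65, 7.88 and 8.63 in wildtype, and 6.82, 6.68 and 8.45 in apl. Replicate 3 was the highest array of each group, and the groups overlapped. The difference of -0.74 (SE 0.51) was made of -0.83, -1.20 and -0.18 in the 3 pairs, and without apl replicate 3 it was -1.30. The SD was 0.51 in wildtype and 0.98 in apl, the highest of the 8 genes in each group.

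ATG8C, ATG8D and ATG8F, also lipid-coupled ubiquitin-like proteins, lay slightly lower in apl in each of the 3 pairs, with overlapping groups. ATG8C had log2 signals of 8.58, 8.70 and 8.06 in wildtype and 8.25, 8.20 and 7.72 in apl, a difference of -0.39 (SE 0.25). ATG8D had 7.69, 8.41 and 8.13 in wildtype and 7.50, 8.11 and 7.62 in apl, a difference of -0.33 (SE 0.26). For ATG8C and ATG8D the shift was of the size of the spread between replicates of a group. In the 3 pairs it was -0.33, -0.50 and -0.33 for ATG8C, and -0.19, -0.30 and -0.51 for ATG8D. ATG8F, bright on every array, had 11.17, 11.63 and 11.40 in wildtype and 11.01, 11.34 and 11.00 in apl, a difference of -0.28 (SE 0.21).

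ATG8G was the 1 member above 0. Its log2 signal was 8.01, 8.02 and 8.37 in wildtype and 8.39, 8.36 and 8.49 in apl. It was higher in apl in all 3 pairs, but wildtype replicate 3 reached into the range of apl, and the difference was 0.28 (SE 0.19).

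ATG3, the E2-like enzyme that serves all ATG8 proteins, had log2 signals of 9.95, 9.85 and 9.58 in wildtype and 9.51, 9.85 and 9.34 in apl. The groups overlapped, and the difference was -0.22 (SE 0.21), with 0.002 in the pair of replicates 2. Its signal thus differed little beside that of ATG8H, at 1.17-fold lower in apl.

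**Figure D1:**
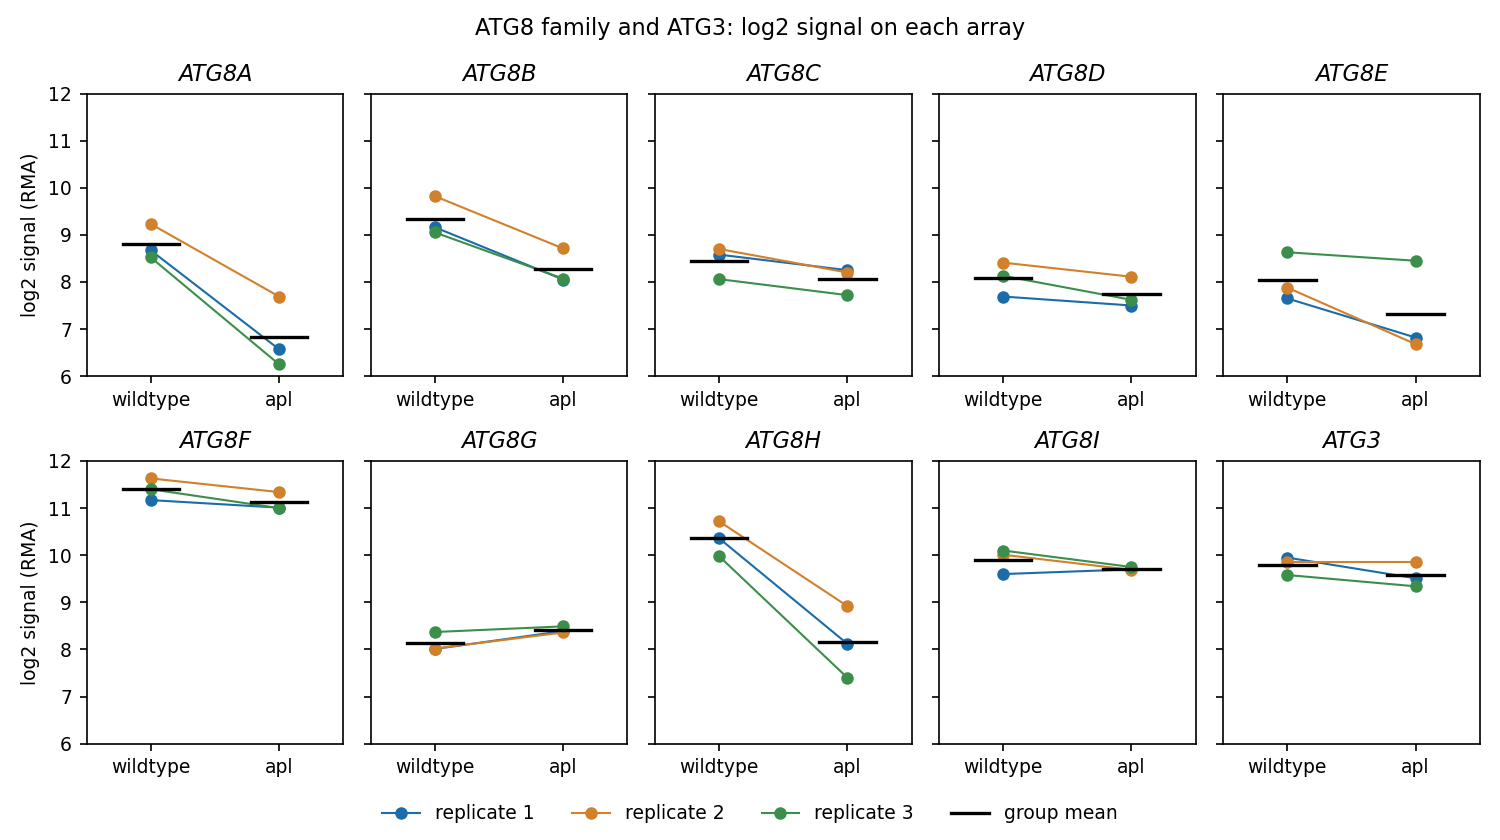
Log2 signal (vertical axis) of the 9 ATG8 genes and ATG3 on each wildtype and apl array, with lines joining arrays of the same replicate number and black bars for group means. Wildtype and apl do not overlap for ATG8A, ATG8B and ATG8H, and replicate 3 of ATG8E is the highest in both groups.

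Across the 8 genes, 7 differences lay below 0, where 36.0% of all probe sets did, and 6 were lower in apl in all 3 pairs, as 12.9% of all probe sets were. The median difference was -0.36, beside 0.10 over all probe sets. It was -0.38, -0.40 and -0.37 in the 3 pairs, and -0.23 without wildtype replicate 2. Groups did not overlap, with apl lower, for 2 of the 8, against 5.32% of all probe sets. Limma with Benjamini-Hochberg adjustment over all 38408 probe sets called 0 of the 8 at an adjusted p under 0.05, where 0.604% of probe sets were called, and 2 had an unadjusted p under 0.05, ATG8H and ATG8B, both lower in apl, as 4.34% of all probe sets were at that p. With the replicate number as a block it called 1 of the 8, ATG8H, where 1.1% of probe sets were called, and ATG8H was also the 1 member called without apl replicate 2. Since these genes were chosen on this contrast, nothing is read from these counts.

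ATG8A, which was not among the chosen genes, differed almost as much as ATG8H. Its log2 signal was 8.67, 9.23 and 8.52 in wildtype and 6.57, 7.69 and 6.25 in apl. The groups did not overlap, with 0.82 log2 units between them. The difference was -1.97 (SE 0.40, n = 3 per group), a 3.91-fold lower signal in apl, with -2.10, -1.53 and -2.27 in the 3 pairs. It did not pass the test over all probe sets (limma adjusted p = 0.130), and did with the replicate block (adjusted p = 0.0355) and without apl replicate 2 (adjusted p = 0.024). Over the 11 other fits the adjusted p of ATG8A ran from 0.024 to 0.442 (limma).

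ATG8I, the relative of ATG8H that also ends in its glycine, differed less. Its log2 signal was 9.60, 10.01 and 10.10 in wildtype and 9.70, 9.69 and 9.75 in apl, with overlapping groups. The difference was -0.19 (SE 0.20, limma adjusted p = 0.846). In each of the 3 pairs ATG8H had the lowest difference of the 9 family genes and ATG8A the next lowest, while ATG8G had the highest. Whether the differences of ATG8H and ATG8I differ was not tested, because ATG8H was chosen on this contrast.

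**Figure D2:**
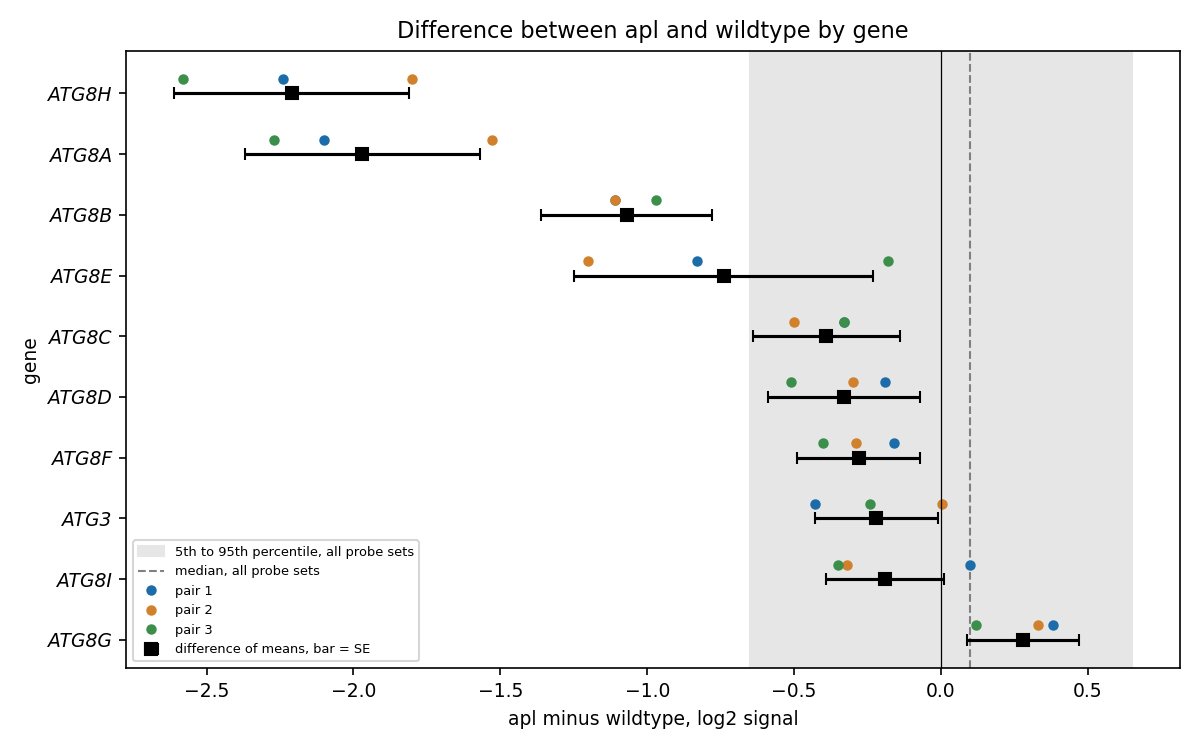
Difference in log2 signal between apl and wildtype (horizontal axis) for the 9 ATG8 genes and ATG3, as the difference of means with its SE (squares and bars) and in each pair of arrays (circles). The grey band spans the 5th to 95th percentile of all probe sets, -0.65 to 0.65, and ATG8H, ATG8A, ATG8B and ATG8E lie below it.

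Some of the genes also varied together between replicates of the same group. Relative to their group means, ATG8H and ATG8A were high in replicate 2 and low in replicate 3 of both genotypes. ATG8H lay at 0.37 and 0.78 in wildtype and apl replicate 2, and at -0.37 and -0.75 in replicate 3. ATG8A lay at 0.42 and 0.86 in replicate 2 and at -0.29 and -0.59 in replicate 3. These deviations had a Pearson's r of 0.96 over the 6 arrays, given as a description since the arrays and their pairing are shared. Replicate 2 was the highest array for 5 of the 8 chosen genes in wildtype and for 5 of 8 in apl, beside 32.5% and 34.8% of probe sets with a signal above the median. Replicate 3 was the lowest array for 4 of the 8 in each group, beside 42.0% and 39.6% of these probe sets. It also had the lowest array median of each group, 6.05 in wildtype and 6.18 in apl, so low values in replicate 3 were not particular to these genes.

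ATG8E went the other way, with 0.58 and 1.13 in wildtype and apl replicate 3, and its deviations had an r of -0.85 with those of ATG8H. Those of ATG8D and ATG8F had an r of 0.98. Over the 28 pairs among the 8 genes, r of the deviations ran from -0.90 to 0.98 with a median of 0.30, and 16 lay above 0. Whether the family varied as 1 unit cannot be read from these values, since the arrays are few and their pairing is shared. How far probes for 1 ATG8 gene also bind transcripts of another was not tested, since probe sequences are not used here.

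**Figure D3:**
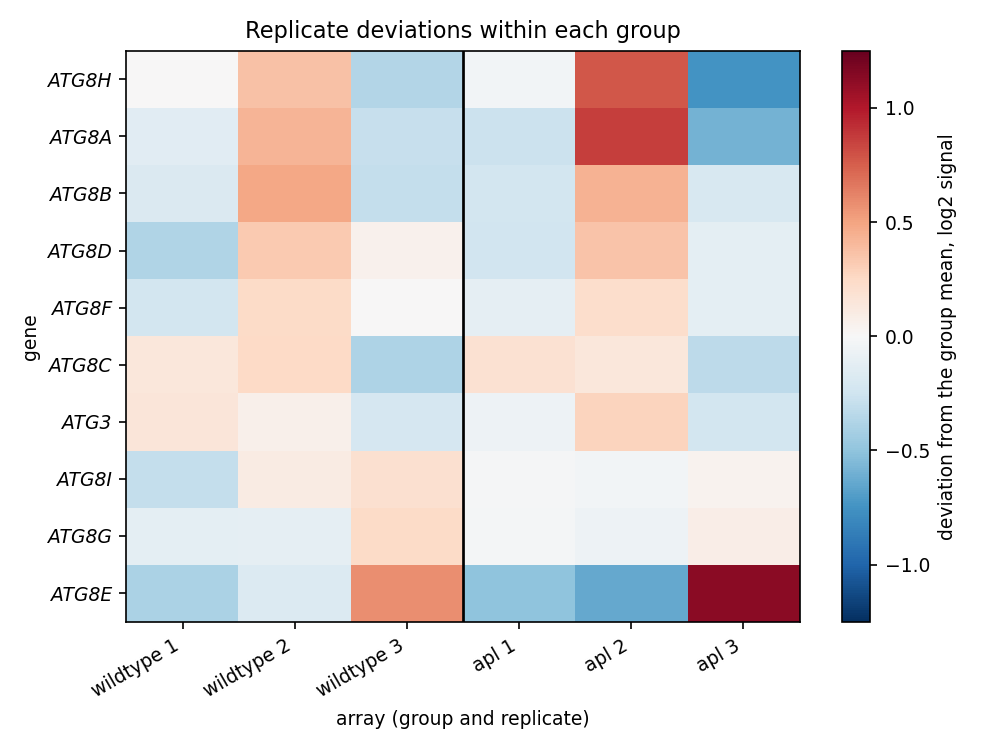
Deviation of each array from the mean of its group in log2 signal (colour) for the 9 ATG8 genes and ATG3 (rows) on the 6 arrays (columns). ATG8H, ATG8A and ATG8B are above their means in replicate 2 of both groups, and ATG8E is above its mean in replicate 3 of both.

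The genes whose signal followed ATG8H and ATG8B most closely were sought among 7874 other singly named probe sets with a signal above the median, by Pearson's r over the 6 arrays. For ATG8H they were AT3G21210 and AT4G22940 (r = 0.998 each), AT1G19835 and AT5G24318 (0.997 each) and AT5G48690 (0.996). Their own differences between apl and wildtype ran from -4.87 for AT5G48690 to -1.20 for AT1G19835. Like ATG8H, all 5 had their smallest difference in the pair of replicates 2, for example -3.17 for AT3G21210 beside -4.52 and -5.21 in the other pairs. They were chosen by r over these same arrays, so this likeness comes with the choice. ATG8A stood in place 33 of this order (r = 0.991).

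For ATG8B the closest were AT2G31560 (r = 0.993), AT1G69460 (0.992), AT4G05060 (0.990), AT5G04840 (0.988) and AT5G20580 (0.987). Their differences ran from -1.49 for AT5G20580 to -0.23 for AT1G69460, so a like pattern came with unlike sizes. ATG8A stood in place 27 of that order (r = 0.975). With 6 arrays in 2 groups, such values describe these arrays and carry no p.

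Of 51 other autophagy genes listed, 17 were measured under a single gene name, ATG8A and ATG8I among them. Limma called 0 of the 17 over all probe sets, where 0.604% of probe sets were called. At an unadjusted p under 0.05, 2 were lower, ATG8A and ATG1T, and 0 higher, beside 4.34% and 4.66% of all probe sets. With the replicate block it called 1 of the 17, ATG8A, where 1.1% of probe sets were called. Differences lay below 0 for 13 and above 0 for 4, where 36.0% of all probe sets lay below 0. Their median was -0.16, beside 0.10 over all probe sets.

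In the ATG1 kinase complex, which starts autophagosome formation, 6 of 8 listed genes were measured. The kinase gene ATG1T differed by -0.52 (SE 0.19, limma adjusted p = 0.498), with 7.53, 7.57 and 7.41 in wildtype and 7.26, 6.83 and 6.88 in apl, and its groups did not overlap. ATG1A, another kinase gene, differed by -0.44 (SE 0.21), with groups that barely failed to overlap, at 11.19 in wildtype replicate 1 and in apl replicate 2. Groups did not overlap, with apl lower, for 5.32% of all probe sets. ATG13B, a regulatory subunit, differed by -0.78 (SE 0.43) with overlapping groups. ATG101, a further subunit, differed by -0.24 (SE 0.27), and the kinase genes ATG1B and ATG1C by 0.13 (SE 0.17) and 0.06 (SE 0.17).

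Of the other autophagy roles, no measured gene was called (limma). VPS38 and ATG14B, of the complexes that make the lipid phosphatidylinositol 3-phosphate, differed by -0.36 (SE 0.27) and -0.002 (SE 0.18). ATG16, a partner of the ATG12-ATG5 conjugate that helps ATG3, differed by -0.10 (SE 0.25). The cargo receptor genes DSK2A, DSK2B and C53 lay between -0.17 and -0.04. RAPTOR1A and RAPTOR1B, partners of the TOR kinase that restrains autophagy, differed by 0.04 and -0.11, and SH3P2, which binds autophagosome membranes, by 0.01. The lipid transport genes of the ATG2, ATG9 and ATG18 type and the starvation and senescence genes listed are not analysed here.

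Vacuolar proteases take part in breaking down what autophagosomes deliver, and 4 of 7 listed were measured. ALPHA-VPE, a vacuolar processing enzyme, had log2 signals of 7.87, 8.80 and 7.40 in wildtype and 6.25, 7.46 and 5.73 in apl. It differed by -1.54 (SE 0.52), or 2.92-fold, with groups that overlapped slightly. In apl replicates 1 and 3 it lay no higher than the medians of these arrays, 6.25 and 6.18. Its limma adjusted p was 0.418, and 0.0344 with the replicate block, since the 3 pairs were alike at -1.62, -1.34 and -1.67. The gene was high in replicate 2 and low in replicate 3 of both groups, as ATG8H and ATG8A were, and had an r of 0.947 with ATG8H over the 6 arrays. Replicate 3 was also the lowest array for 42.0% (wildtype) and 39.6% (apl) of probe sets with a signal above the median. GAMMA-VPE, BETA-VPE and the cathepsin B gene CATHB3 differed by 0.16 (SE 0.20), 0.05 (SE 0.20) and 0.25 (SE 0.20).

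**Figure D4:**
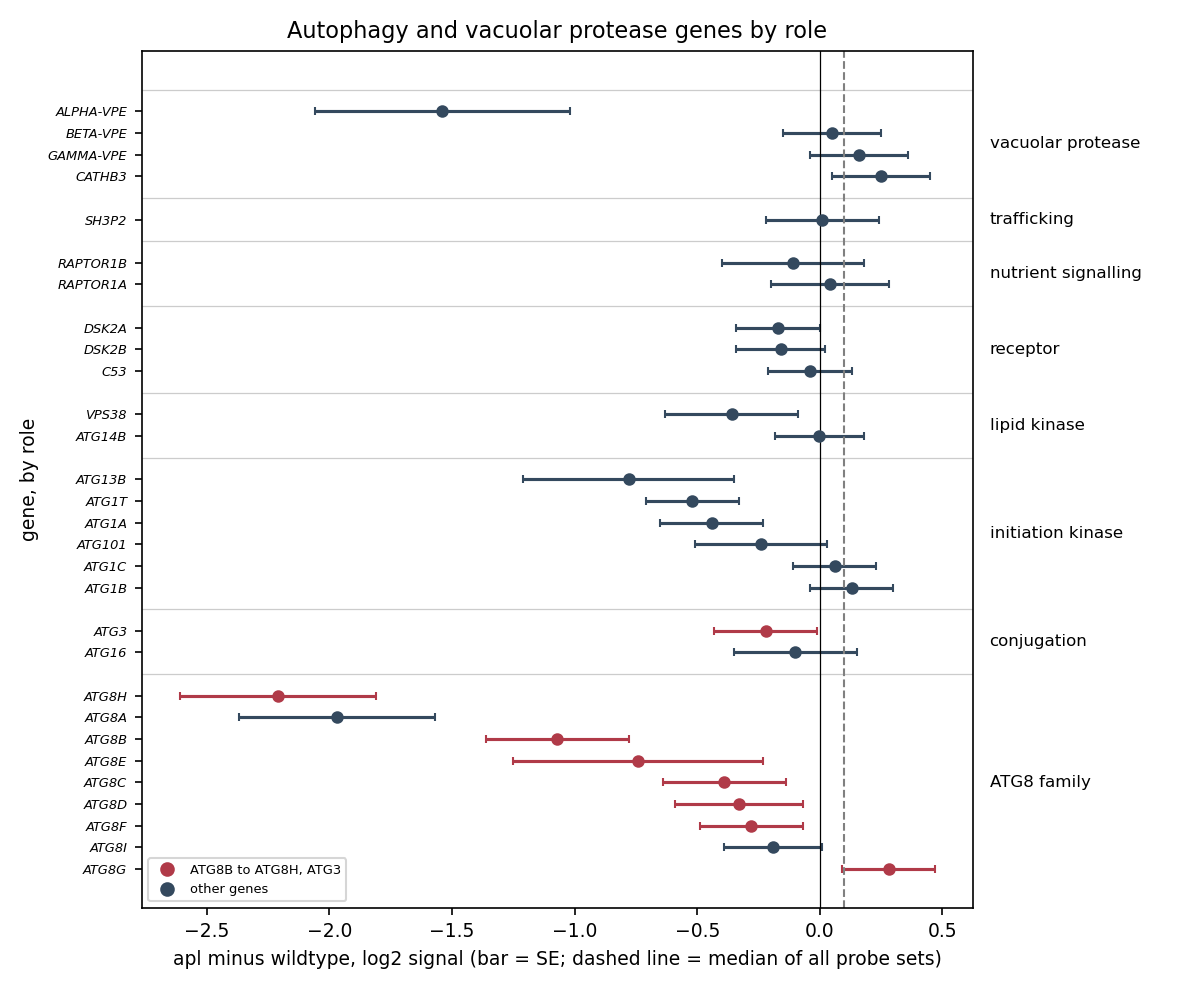
Difference in log2 signal between apl and wildtype with its SE (horizontal axis) for the measured autophagy and vacuolar protease genes, grouped by role, with the dashed line at the median of all probe sets, 0.10. The lowest values are those of ATG8H, ATG8A, ALPHA-VPE and ATG8B, and most genes of the other roles lie within 0.5 of 0.

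Few markers of vascular cell types were measured, and none was called (limma). Of 11 xylem markers 3 were measured, the xylan synthesis genes IRX10, IRX15 and IRX15-L, and all 3 lay lower in apl in all 3 pairs, by -1.14 (SE 0.42), -2.06 (SE 0.62) and -1.48 (SE 0.48). Their mean log2 signal was 9.98 to 10.98 in the wildtype arrays and 8.10 to 9.88 in the apl arrays. The median of the 3 ran from -2.76 in the pair of replicates 3 to -0.68 in the pair of replicates 2. ATG8H had -2.58 and -1.80 in these pairs. Both the median and ATG8H were lowest in the pair of replicates 3 and highest in the pair of replicates 2. IRX10 by itself had its smallest difference in the pair of replicates 1, -0.41 beside -0.65 in the pair of replicates 2. Within wildtype, the 3 xylan genes were highest in replicate 3, at 12.31, 8.84 and 11.81, where ATG8H was lowest, at 9.98. Within apl, these 3 genes and ATG8H were all highest in replicate 2 and lowest in replicate 3. Of 4 genes listed for companion cells only SWEET11 was measured, a sucrose exporter known from phloem parenchyma, so companion cells had no marker here. SWEET11 had log2 signals of 10.08, 8.60 and 7.00 in wildtype and 11.71, 10.16 and 10.57 in apl. It was higher in apl in all 3 pairs, by 2.25 (SE 0.77) between the means, and did not pass the test (limma adjusted p = 0.435). Of 7 sieve element markers none is analysed here. IRX15 lay at 5.72 and 5.30 in apl replicates 1 and 3, under the medians of these arrays, 6.25 and 6.18. The 2 mesophyll markers had a mean of 9.23 to 9.85 in wildtype and 9.52 to 9.62 in apl. Among reference genes, GAPC2, SAND, UBC21 and TIP41L differed by -0.09, -0.12, -0.20 and 0.22. The part of cell composition in the ATG8 differences was not tested.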

How the data were processed

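The deposited values are log2 signals of 1-colour Affymetrix arrays, made by the authors with RMA per the submitters' processing notes. RMA corrects background, normalizes arrays and summarises probes. Its version, and how arrays were grouped in it, are not given in the sources used here. These values hold no detection calls, and the number of arrays limits the precision.

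Probe sets were named through the platform annotation, which pairs 16722 of 38408 with 1 gene, 759 with several and 20927 with none. Of the 16722, 16574 matched the RefSeq table of assembly TAIR10.1, used for names and gene order only. Of 107 listed genes, 39 were measured. Protein and promoter sequences are not analysed here.

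Unscaled values of apl and wildtype were compared with limma 3.58.1 (lmFit and eBayes, R 4.3.3), 2-sided, over all probe sets, with Benjamini-Hochberg adjustment and a threshold of 0.05. The fit was tested on simulated data in which some probe sets were lowered in apl. It called 10.1%, 47.1% and 88.5% of the 69, 70 and 61 probe sets lowered by 1, 2 and 4 log2 units. The simulated noise was drawn for each array on its own, without pairing by replicate number, so these shares describe that setting. A gene that was not called may therefore still differ. Figures were drawn with matplotlib 3.10.9.

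Groups share replicate numbers. Deviations from group means correlated at 0.40 to 0.45 between arrays of the same number, in all 3 pairs, and these arrays held 740 to 940 identical values against 0 to 2 in other pairs of arrays. By these correlations the numbers pair the samples. The labels state no such pairing, and it may lie in the processing. The main fit has no block, and the fit with the replicate number as a block is given beside it where a call changes. The labels do not say that replicates were separate cultures, so the spread behind the p-values may be technical only.

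Alternatives were the replicate block, quantile normalization, median centring, leaving out probe sets under the 25th percentile, a variance trend with robust prior, a threshold of 0.10 for the other autophagy genes, and leaving out each array. The genes described, the lists and the tests were chosen with earlier results of these data known. Named are all 8 chosen genes, up to 4 genes with the smallest p of each list and, for likeness, the 5 closest to each of the 2 chosen genes that differed most. The remaining measured autophagy and protease genes are named beyond that rule, to cover each list.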

Additional observations from a re-analysis of the deposited data

How the results depend on the processing

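Over the 11 alternative fits, 7 of the 8 chosen genes lay below 0 each time. Their median of -0.36 became -0.41 after quantile normalization and -0.42 after median centring, which brought the median of all probe sets from 0.10 towards 0, and ranged from -0.46 to -0.23 without 1 array. With the replicate block limma called 1 of the 8 and 1 of the 17 other autophagy genes, and 81 higher and 340 lower probe sets in place of 30 and 202. A variance trend with robust prior gave 1 of the 8, and 98 higher and 314 lower. Leaving out probe sets under the 25th percentile, which leaves fewer tests, gave 61 higher. Leaving out 1 array gave 0 to 1 of the 8, 0 to 1 of the 17, 1 to 22 higher and 20 to 308 lower calls. In each of these cases the 1 of the 8 was ATG8H and the 1 of the 17 was ATG8A. The cause of these moves was not tested. The block brought a call of ATG8H, ATG8A and ALPHA-VPE and changed no other call of the chosen, other autophagy and vacuolar protease genes. Averaging several probe sets for 1 gene was not run, as each gene has 1. The medians of the 17 other autophagy genes kept their sign, at -0.23 to -0.12. A threshold of 0.10 called 0 of the 17, beside 2 at an unadjusted p under 0.05. Of the 8 chosen genes ATG8H would pass it, with a limma adjusted p of 0.0924, which ran from 0.0305 to 0.357 over the 11 other fits.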

Other observations

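The measured genes beside ATG8H and ATG8A on their chromosomes lay closer to 0 than ATG8H and ATG8A. Within 10 protein-coding genes on each side, in the order of the RefSeq table, 9 named neighbours of ATG8H were measured, with log2 differences between -0.52 and 0.22 and a median of 0.07. The 13 measured neighbours of ATG8A lay between -0.25 and 0.83, with a median of 0.12, and the 10 of ATG8B between -0.34 and 0.57, with a median of -0.01. Some neighbours of other family genes had larger differences than the family gene itself, with lowest values of -1.88 beside ATG8C, -1.44 beside ATG8E, -1.52 beside ATG8G, -0.85 beside ATG8D and -0.86 beside ATG8I. The medians of the neighbours lay between -0.01 and 0.19 over the 9 ATG8 genes and ATG3.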
